A study of Drosophila melanogaster with 6 samples.

Results

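The subject is the small RNA machinery of the fly head: 10 genes that make, load or modify small RNAs, namely *Dcr-2*, *Dcr-1*, *AGO1*, *AGO2*, *r2d2*, *loqs*, *drosha*, *pasha*, *armi* and *Hen1*. A probe set was counted as a member when the platform's probe-to-gene table gave it 1 gene and that gene was among these. This held for 7 genes with 1 probe set each, 7 of the 10956 probe sets on the deposited table, and *Dcr-1*, *AGO1* and *AGO2* were not analysed here. The arrays were Affymetrix Drosophila 2.0 arrays of total RNA from *Drosophila melanogaster* heads, 30 heads per sample, with 1 array per sample. The 6 samples fall into 3 groups of 2, labelled control (called cyo in the design text), *cbt* over-expression and *cbt* RNAi, and each group has 1 array from ZT3 and 1 from ZT15, the hours since lights-on, after 3 to 4 days in a light-dark cycle. The driver, the transgenes, the sex and age of the flies and whether the arrays of a group came from separate crosses are not given in the sources used here, so p-values cover only the spread between these arrays.

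In *Drosophila* small RNAs are made by branches that share a logic but mostly use different proteins. MicroRNA precursors are cut in the nucleus by Drosha with its RNA-binding partner Pasha and then by Dicer-1 with a form of Loquacious, and they act through Argonaute-1. Long double-stranded RNA, from viruses, transposons or an RNAi hairpin transgene, is cut by Dicer-2 into small interfering RNAs, which Dicer-2 and R2D2 load into Argonaute-2. Hen1 then methylates the 3' end of small interfering RNAs and of piRNAs, the transposon-silencing small RNAs best known from the gonad, where the helicase Armitage acts. Laboratory RNAi stocks often carry an added *Dcr-2* transgene to strengthen a hairpin, and the sources used here do not say whether these flies do.

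All values are log2 probe set signals, so a difference of 1 is 2-fold. The arrays had medians between 7.35 and 7.42. *cbt*, the targeted gene, read 10.21 and 10.72 in control heads (ZT3, then ZT15), 8.98 and 9.90 on the over-expression arrays and 10.99 and 11.05 on the RNAi arrays, which goes against both labels. The words control, over-expression and RNAi below name the labels only. Markers of neurons, photoreceptors and glia were bright on all 6 arrays, with means of 8.60 to 9.42, 11.38 to 11.91 and 10.35 to 10.67. The over-expression ZT3 array stood apart: all 9 digestive tract markers on the table were at their highest there, a median of 2.72 above the mean of the other 5 arrays. All 5 hemocyte markers were highest there too (median excess 0.81), while 6 of 7 neuron, 4 of 5 photoreceptor and 3 of 4 glia markers were at their lowest (median excess -0.53, -0.42 and -0.26).

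*Dcr-2*, the Dicer of the small interfering RNA branch, was far higher on the RNAi arrays than on any other. Its probe set (1641449_at) read 8.74 and 8.79 in control heads, 8.52 and 8.65 in over-expression heads and 12.96 and 12.87 on the RNAi arrays. The 4 arrays of the first 2 groups lay within 0.27 of each other, and the RNAi arrays did not overlap them. The group means were 8.76 ± 0.04 (SD, n = 2), 8.58 ± 0.09 and 12.92 ± 0.07. Each SD is between the ZT3 and the ZT15 array of a group. The RNAi arrays lay 4.15 above control, 17.8-fold on the linear scale, with 4.23 at ZT3 and 4.08 at ZT15, and 4.33 above the over-expression arrays, 20.2-fold. Among all probe sets 3 lay higher above control. This rise was known when the genes were chosen, so it is given as a description with no test.

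**Figure D1:**
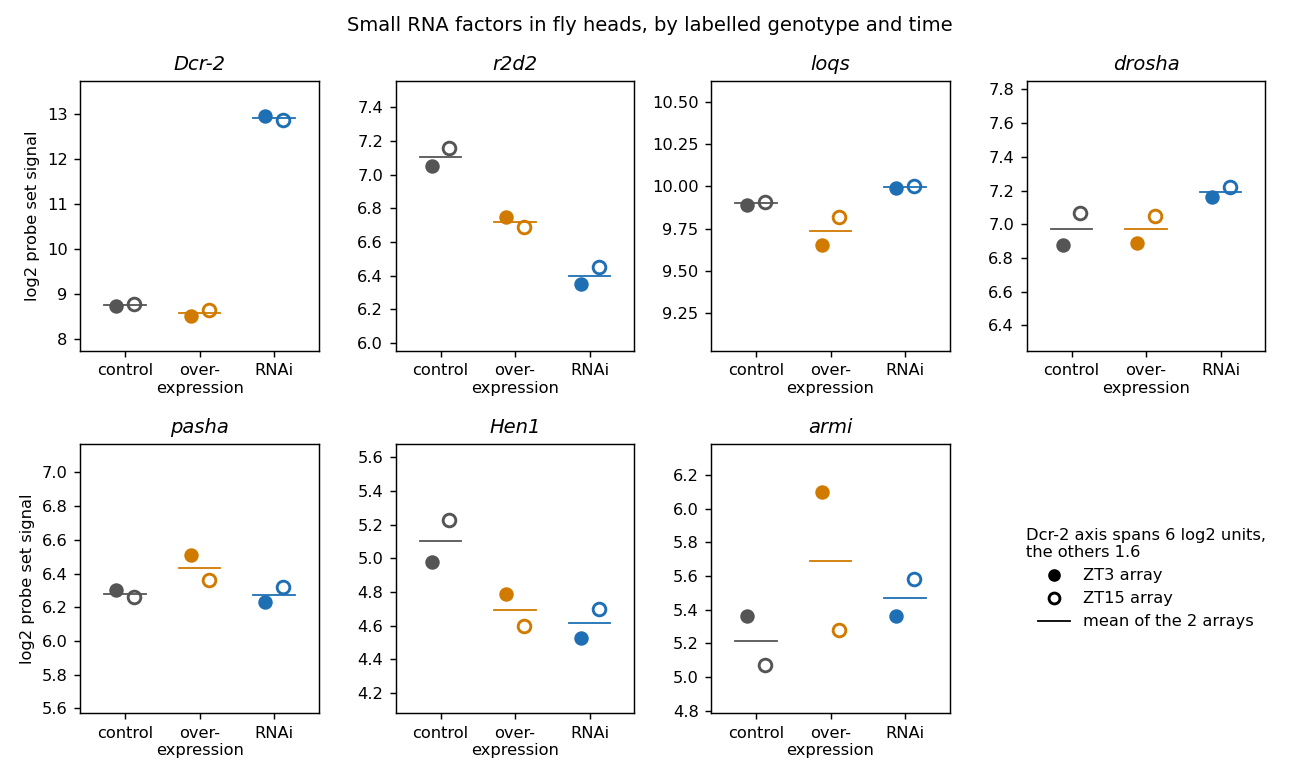
Log2 probe set signal (vertical axis) of the 7 measured small RNA factors on each array, by labelled genotype (horizontal axis); filled points are ZT3 arrays, open points ZT15 arrays and bars the mean of the 2. *Dcr-2* stands at 12.96 and 12.87 on the RNAi arrays against 8.52 to 8.79 elsewhere, and *r2d2* is highest in control and lowest on the RNAi arrays.

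*Dcr-2* did not pass the test between over-expression and control heads or between ZT15 and ZT3. Its mean was 0.18 lower in the over-expression heads than in control (log2 difference -0.18 ± 0.09 SE, 2 arrays per group, 95% interval -0.41 to 0.05, limma adjusted p = 0.256). The interval reaches from 0.752-fold to 1.03-fold. Between ZT15 and ZT3 it differed by 0.03 (-0.16 to 0.22, adjusted p = 0.880), by 0.06 in control, 0.13 in the over-expression and -0.10 in the RNAi heads.

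Of the other 6 members, *r2d2* alone passed against control on the RNAi arrays, and it was lower there. *r2d2* encodes the double-stranded RNA binding partner of Dicer-2, which helps hand small interfering RNAs to Argonaute-2. Its probe set (1634859_at) read 7.05 and 7.16 in control, 6.75 and 6.69 on the over-expression arrays and 6.35 and 6.45 on the RNAi arrays. The control arrays thus read highest and the RNAi arrays lowest. How many of all probe sets show such an order of the labels is not given here. Arrays of the RNAi and control groups did not overlap for 58.2% of all probe sets. The RNAi arrays were 1.63-fold lower than control, a log2 difference of -0.70 ± 0.11 (SE, 2 arrays per group, 95% interval -0.97 to -0.43, limma adjusted p = 0.0276), at -0.69 at ZT3 and -0.71 at ZT15. In the same comparison 8.62% of the 10893 probe sets tested passed.

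The neighbouring steps of that order did not pass. Between over-expression and control heads *r2d2* differed by -0.39 ± 0.11 (-0.66 to -0.12, limma adjusted p = 0.0972), and between RNAi and over-expression heads by -0.31 ± 0.11 (-0.59 to -0.04, adjusted p = 0.0872). A lower level peculiar to the RNAi heads was therefore not shown. The call against control was lost without either control array (adjusted p = 0.163 without ZT3 and 0.258 without ZT15) or either RNAi array (0.126 and 0.102), with differences between -0.75 and -0.66. It held without either over-expression array (0.0102 and 0.0110), and *r2d2* lay below the signal filter at the 40th percentile of means (6.79) and was not tested there.

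Some other readings differed between the RNAi and control arrays as well. The control probe set AFFX-Dm-M15077-1_at read 2.64 and 2.69 on the RNAi arrays against 5.55 and 7.05 on the control arrays. On the over-expression arrays it read 4.85 and 6.81, so only the RNAi arrays were low. AFFX-Dm-K01486-1_at read 4.95 and 6.53 on the RNAi and 5.52 and 6.60 on the over-expression arrays, against 2.90 and 3.52 in control. The hybridisation control BioB read 7.93 and 7.76 on the RNAi arrays against 4.71 and 5.54 on the control arrays. For the other 35 of 36 spike probe sets the RNAi and control arrays overlapped, but for several the control arrays differed widely from each other. AFFX-DapX-3_at read 9.38 at ZT3 and 11.88 at ZT15 in control, and the RNAi arrays lay between these at 10.56 and 10.87. For GAPDH the gap between the 3' and 5' probe sets, a sign of RNA length, was 3.83 and 4.24 against 3.67 and 3.61, and that of eIF-4a 5.66 and 5.51 against 5.71 and 5.53. Of 5 hemocyte markers, all on the table, *srp* (-0.78) and *NimC1* (-0.65) fell, and *PPO1* (-1.08), *He* (-0.28) and *Hml*, which lay higher at 0.40 (0.09 to 0.72), did not pass. Their summed linear signal was 1195 and 1106 against 1815 and 1271, the dimmest marker reading 3.59 to 3.99 on these 4 arrays. Of 4 fat body markers *fit* fell by 1.69 (limma adjusted p = 0.00687), with a list median of -0.13 and summed linear signals of 34760 and 36250 on the RNAi against 41330 and 46200 on the control arrays. Of 5 photoreceptor markers *gl* rose by 0.47 (0.0468), with a list median of 0.24 and sums of 34640 and 34480 against 31960 and 30330. No neuron or glia marker passed here (0 of 7 and 0 of 4, with 1 of each at an unadjusted p under 0.05). Among all 10893 probe sets 3349 had an unadjusted p that low. The part of these readings in the *r2d2* difference was not tested. In bulk heads fewer cells of a type and less RNA per cell cannot be told apart.

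*loqs* encodes the RNA-binding protein Loquacious, whose isoforms partner Dicer-1 or Dicer-2. It read 9.89 and 9.91 in control, 9.65 and 9.82 on the over-expression and 9.99 and 10 on the RNAi arrays. The RNAi arrays were the highest by a small margin, 0.10 above control (-0.12 to 0.32, limma adjusted p = 0.480) and 0.26 above the over-expression arrays (0.04 to 0.48, adjusted p = 0.0810). Its probe set (1636788_a_at) is of the kind that reads several transcripts of a gene, so isoforms cannot be told apart. A rise of the size of that of *Dcr-2* lies outside both intervals.

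The nuclear microRNA processing genes stayed within narrow ranges. *drosha*, the RNase of the complex, read 6.88 and 7.07 in control, 6.89 and 7.05 on the over-expression and 7.16 and 7.22 on the RNAi arrays. It lay 0.22 above control on the RNAi arrays (-0.04 to 0.47, 0.974-fold to 1.39-fold, limma adjusted p = 0.216) and at 0.00 on the over-expression arrays (-0.25 to 0.26). *pasha*, its RNA-binding partner, read 6.30 and 6.26, then 6.51 and 6.36, then 6.23 and 6.32 in the same order. Its control and RNAi arrays overlapped (-0.01, -0.30 to 0.29, adjusted p = 0.983), and the over-expression arrays lay 0.15 above control (-0.14 to 0.45, adjusted p = 0.428). *pasha* had the smallest range over the 6 arrays among the 7 members, 0.28.

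*Hen1*, the methyltransferase that protects small interfering RNAs and piRNAs, was highest on the control arrays. It read 4.98 and 5.23 there, 4.79 and 4.60 on the over-expression and 4.53 and 4.70 on the RNAi arrays. The control and RNAi arrays did not overlap. For RNAi and control such a gap was found for 58.2% of all probe sets. The differences from control were -0.49 ± 0.15 (-0.88 to -0.10) on the RNAi and -0.41 ± 0.15 (-0.80 to -0.02) on the over-expression arrays, and neither passed (limma adjusted p = 0.109 and 0.163). The altered groups differed from each other by -0.07 (-0.46 to 0.32). Both comparisons share the control arrays.

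**Figure D2:**
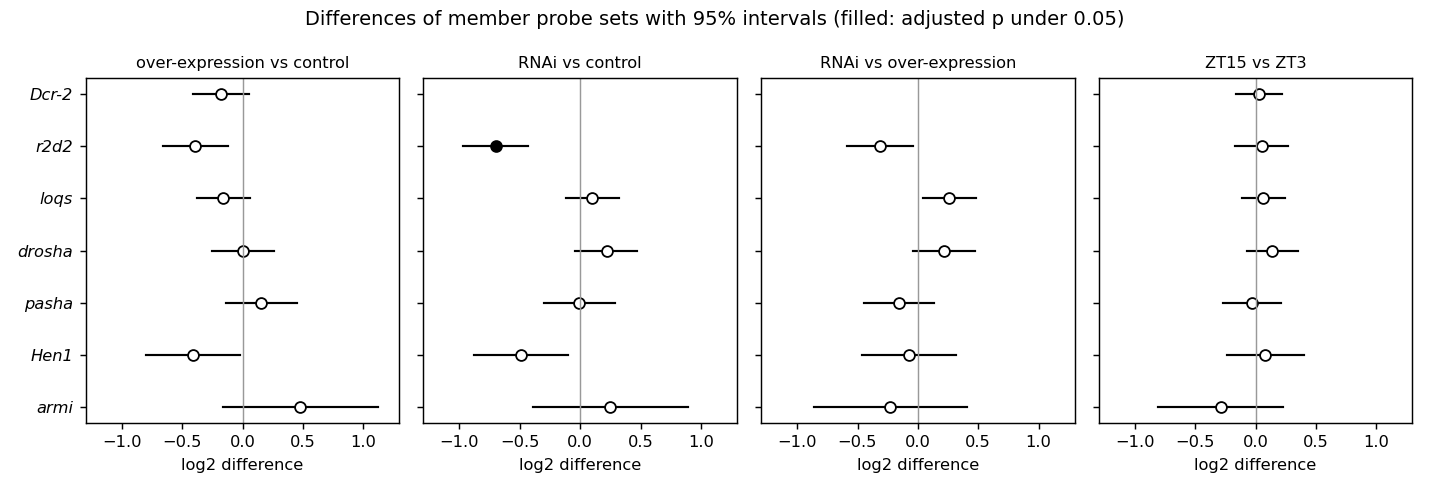
Log2 difference (horizontal axis) of each member in 4 comparisons, with its 95% interval from the fit of all 6 arrays; filled points have an adjusted p under 0.05. *Dcr-2* is left out of the comparisons with the RNAi arrays, where it lies at 4.15 and 4.33; the filled point is *r2d2* at -0.70.

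Counted over the members, 1 of the other 6 passed between RNAi and control heads, where 8.62% of all probe sets passed. *Dcr-2* is left out of this count. Between over-expression and control heads limma called 0 of 7, where 6.06% of all probe sets passed. An unadjusted p under 0.05 was reached by 2 (*r2d2* and *Hen1*), and by 3001 of all 10893 probe sets. Between RNAi and over-expression heads 0 of the other 6 passed, with 25.8% of all probe sets called. Here 2 of the 6 (*r2d2* and *loqs*) had an unadjusted p under 0.05, as had 4519 of all 10893 probe sets. The median difference from control over the 7 members, *Dcr-2* included, was 0.10 for the RNAi and -0.16 for the over-expression arrays. Over all probe sets it was 0.014 and -0.012. Without a model, *r2d2* was the only member besides *Dcr-2* at least 1.5-fold from control in 1 direction at both times on the RNAi arrays (6.53% of all probe sets), and there was none on the over-expression arrays (6.5%). Arrays of the RNAi and control groups did not overlap for 5 of 7 members, *Dcr-2* among them, where this held for 58.2% of all probe sets.

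Time of day left no member past the test. Between ZT15 and ZT3 limma called 0 of 7, and 0 at an unadjusted p under 0.05, with 0.542% of all probe sets called. An unadjusted p under 0.05 was found for 1521 of all 10893. The differences ran from -0.29 for *armi* (-0.81 to 0.23) to 0.14 for *drosha* (-0.07 to 0.35, adjusted p = 0.505). *drosha* was higher at ZT15 in each group, by 0.19 in control, 0.16 in the over-expression and 0.06 in the RNAi heads, and *loqs* by 0.02, 0.17 and 0.01. Of all probe sets 39.1% moved in the same direction in all 3 groups. For the 6 members other than *armi* the interval of the time difference stayed within -0.27 and 0.40.

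*armi*, which encodes the helicase Armitage of piRNA production, was highest on a single array. It read 5.36 and 5.07 in control, 6.10 and 5.28 on the over-expression and 5.36 and 5.58 on the RNAi arrays. The over-expression ZT3 array thus lay 0.77 above the mean of the other 5, while the ZT15 array of that group lay among the others. The difference from control was 0.48 ± 0.25 (-0.16 to 1.12, limma adjusted p = 0.279) for the over-expression and 0.25 ± 0.25 (-0.39 to 0.89, adjusted p = 0.545) for the RNAi arrays. Without the over-expression ZT3 array the first was 0.08 (adjusted p = 0.881), and without that group's ZT15 array 0.87 (0.0405).

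On that same array several germline genes were high. *osk*, which encodes the organiser of the egg's pole plasm, read 9.38 there against 2.65 to 5.25 on the other arrays, and the germline gene *nanos* read 7.22 against 2.57 to 4.01. The other 4 of the 6 ovary and germline markers on the table were not raised in this way, *Vm26Aa*, *Cp36*, *Fcp3C* and *grk* lying between -0.28 and 0.19 of the mean of the other arrays. The summed linear signal of the 6 markers was 1017 on this array and 228.5 to 277 on the others, and that of the 9 digestive tract markers 9054 against 349 to 561. The part of these markers in the *armi* value was not tested.

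Of the piRNA genes that are not members, most were highest on the same array. Of 34 genes listed, 20 were on the table, and 14 of these were at their highest on the over-expression ZT3 array, where 24.0% of all probe sets were. Their median excess there over the other arrays was 0.35. The tudor-domain genes *krimp* and *vret* read 6.09 and 5.37 there against at most 4.21 and 4.10 elsewhere, the helicase gene *spn-E* 5.86 against at most 4.61, and *del*, of the complex that marks piRNA source loci, 6.68 against at most 5.38. None of these 4 passed between over-expression and control heads (limma adjusted p = 0.385, 0.156, 0.129 and 0.154). On that group's ZT15 array the median excess of the 20 genes was -0.02. Over all probe sets it was -0.03 on the ZT3 and -0.02 on the ZT15 array of that group.

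**Figure D3:**
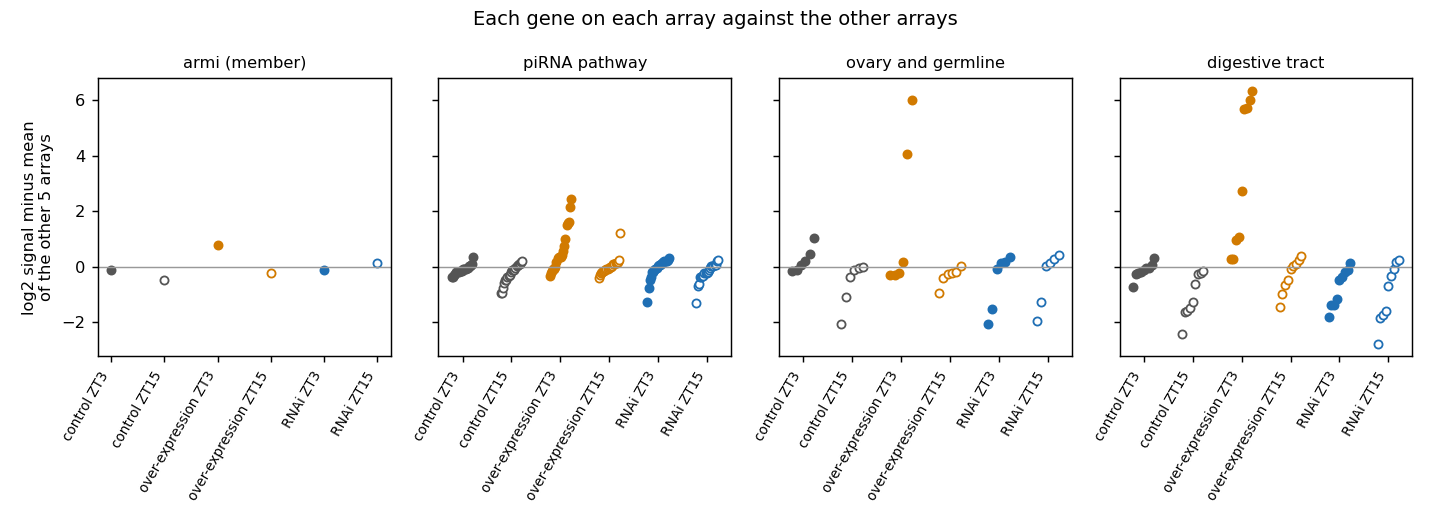
Log2 signal of each gene on each array minus its mean on the other 5 arrays (vertical axis), for *armi*, the 20 piRNA pathway genes, 6 ovary and germline markers and 9 digestive tract markers; filled points are ZT3 arrays and open points ZT15 arrays. The over-expression ZT3 array holds the highest points of each panel.

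In the piRNA list 2 genes rose and 0 fell in the over-expression heads, with a median difference of 0.25 over the 20, where 6.06% of all probe sets passed. The count was 0 without either control array, 1 without the over-expression ZT3 array and 0 above the 20th percentile of means, a filter that left the genes called here untested. *squ*, a germline piRNA factor, read 4.07 and 3.41 in control, 6.24 and 5.23 on the over-expression arrays and 3.15 and 3.11 on the RNAi arrays. It was thus high on both over-expression arrays, 1.99 ± 0.25 above control (limma adjusted p = 0.0205), and it remained 1.66 above control without the ZT3 array of that group (0.0172). The call was lost without either control array (0.204 and 0.203). *mael*, which acts with Piwi in transposon silencing, rose by 0.95 ± 0.16 (adjusted p = 0.0389), a call lost without the ZT3 array (0.73, 0.102), without control ZT3 (0.83, 0.259) and without control ZT15 (1.06, 0.223). In the same comparison the neuron marker *Snap25* (-0.51), with all 7 neuron markers below control, and the fat body marker *Lsd-1* (-1.70) fell, and the hemocyte marker *Hml* (1.02) rose (adjusted p = 0.0490, 0.0287 and 0.0201). Summed linear signals on the over-expression against the control arrays were 5142 and 6232 against 7837 and 8592 for neuron, 40190 and 42510 against 41330 and 46200 for fat body and 2456 and 1626 against 1815 and 1271 for hemocyte markers, and the part of these markers in the piRNA values was not tested. In the RNAi heads limma called 0 of the 20 against control, with 3 at an unadjusted p under 0.05 and a median of 0.04. Over all probe sets 3349 of 10893 had such a p.

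Among the cofactors of the small interfering RNA branch, 14 of 16 were on the table and 1 rose in the RNAi heads, where 8.62% of all probe sets passed. The count was 3 without either over-expression array or with only the arrays compared, and 0 without each array of the groups compared. *Cbp80*, the large subunit of the nuclear cap-binding complex, read 6.18 and 6.03 in control, 6.63 and 6.37 on the over-expression and 7.04 and 6.72 on the RNAi arrays. It lay 0.77 ± 0.11 above control on the RNAi arrays (limma adjusted p = 0.0225), but its dimmer probe set differed by 0.08, and with the mean of both the difference was 0.43 and did not pass (0.0577). Leaving out each of the 4 arrays compared gave an adjusted p for *Cbp80* from 0.0794 to 0.188. The remaining 13 did not pass, with a list median of 0.01, and limma called 0 of 14 in the over-expression heads (3 at an unadjusted p under 0.05, median 0.03). For over-expression against control 3001 of all 10893 probe sets had such a p.

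The double-stranded RNA binding and editing genes, 5 of 5 on the table, held 1 gene that rose in the RNAi heads (2 without either over-expression array, with only the arrays compared or above either signal filter). Between RNAi and control heads 8.62% of all probe sets passed, and the arrays of these groups did not overlap for 58.2%. *DIP1*, a nuclear double-stranded RNA binding protein, read 10.54 and 10.15 in control, 10.42 and 10.64 on the over-expression and 11.38 and 11.29 on the RNAi arrays. It lay 0.99 ± 0.15 above control (limma adjusted p = 0.0273) and 0.81 ± 0.15 above the over-expression arrays (0.0197), and the RNAi arrays did not overlap the others. The call against control was lost without each of the 4 arrays compared (0.102 to 0.197), with differences of 0.77 to 1.22. All 5 genes lay above control on the RNAi arrays, with a median of 0.31 beside 0.014 over all probe sets. Between the altered groups *stau* (0.35), a messenger RNA localisation factor, and *Zn72D* (0.40), which promotes RNA editing, passed too (adjusted p = 0.0353 and 0.0411). There 25.8% of all probe sets passed. With each of the 6 arrays left out in turn *stau* passed in 0 fits (0.0822 to 0.170) and *Zn72D* in 1 (0.0451 to 0.217).

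The effectors of microRNA silencing did not pass against control in either altered group. Of 26 listed, 23 were on the table. For RNAi and over-expression 8 and 5 had an unadjusted p under 0.05, beside 3349 and 3001 of all 10893 probe sets. In both comparisons limma called 0, with medians of 0.07 for the RNAi and -0.04 for the over-expression heads. For RNAi against control the count was 3 without either over-expression array or with only the arrays compared, 2 above the 20th percentile, and 1 without RNAi ZT3, above the 40th percentile, with probe sets averaged per gene or centred on ribosomal protein genes, and for over-expression it was 1 without that group's ZT3 array. Between the altered groups *gw*, the GW182 partner of Argonaute-1, at 0.45 (adjusted p = 0.0297) and the deadenylase subunit gene *PAN3* at 0.58 (0.0162) were higher in the RNAi heads, and the decapping enzyme gene *DCP2* at -0.80 (0.0466) was lower. In the same comparison *Tudor-SN*, a nuclease found in the silencing complex, differed by -0.62 (0.0289), and of the piRNA list *squ* by -2.60 (0.00365), *Gasz* by 0.38 (0.0487) and *csul* by -0.43 (0.0470). With each array left out in turn *squ* passed in 6 of 6 fits, *Tudor-SN* in 3, *gw*, *PAN3* and *DCP2* in 2 each, and *Gasz* and *csul* in 0. Over the 4 lists 10 of 62 genes (16.1%) passed between the altered groups, beside 25.8% of all probe sets. This count was 3 with only the arrays compared, and from 2 to 13 with 1 array left out: 3 without either control array, over-expression ZT3 or RNAi ZT15, 2 without RNAi ZT3 and 13 without over-expression ZT15. Between each altered group and control 2 of 62 (3.23%) passed, beside 6.06% of all probe sets for over-expression and 8.62% for RNAi. Between ZT15 and ZT3 limma called 0 of the 62, with 9 at an unadjusted p under 0.05. Of all 10893 probe sets 1521 had such a p.

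**Figure D4:**
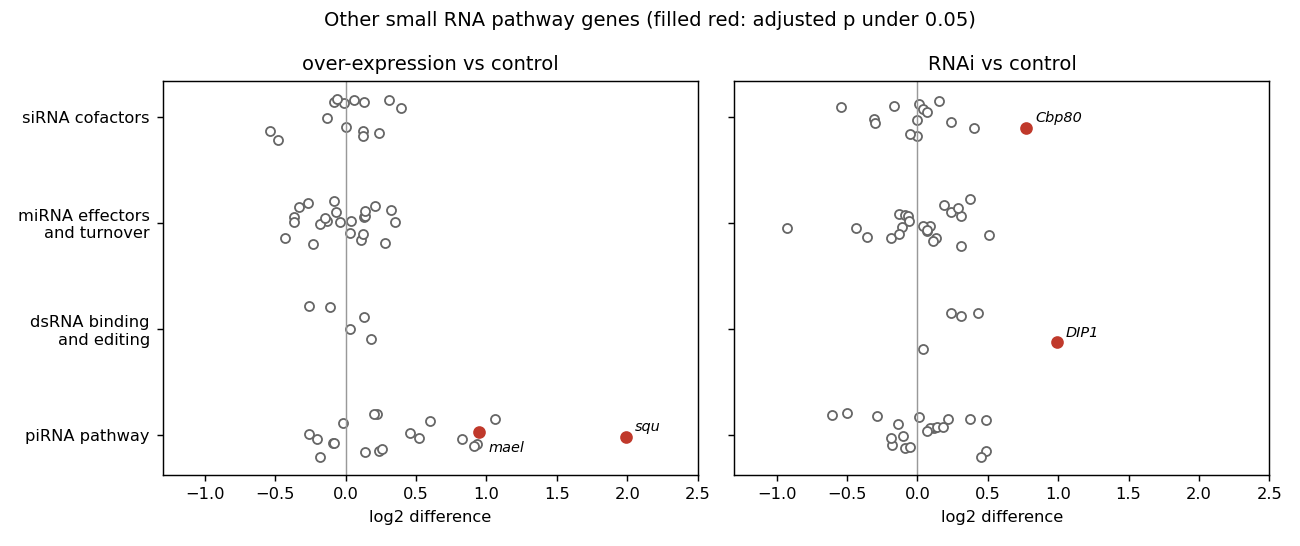
Log2 difference from control (horizontal axis) of the genes of 4 pathway lists, over-expression on the left and RNAi on the right; filled red points have an adjusted p under 0.05 and vertical scatter within a row is only for legibility. *squ* (1.99) and *mael* (0.95) pass on the left, *Cbp80* (0.77) and *DIP1* (0.99) on the right.

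Among genes with a wide range over the 6 arrays, the 5 named genes most like *Dcr-2* were not small RNA genes. Genes whose symbol is a bare CG or CR number were left out of this ranking and could lie closer. Of the other 6 members only *armi* (range 1.03) met the range set here. *r2d2* (0.81) and the rest could not appear. The ranking held 1094 probe sets with such a named gene and a range of at least 1. The highest Pearson correlations with *Dcr-2* over the 6 arrays were those of *teq* (0.9975), a neuronal serine protease gene, and the cytochrome P450 gene *Cyp6a8* (0.9881). Next came *lncRNA:CR42862* (0.9878), the glutathione transferase gene *GstE4* (0.9861) and *Pepck2* (0.9846), which encodes a relative of the gluconeogenic enzyme. These points share the same 6 arrays, and each correlation mainly restates the step between 2 arrays and the other 4. *teq* read 3.43 and 3.63 in control, 3.41 and 3.61 on the over-expression and 6.84 and 6.51 on the RNAi arrays. *Pepck2* had the widest range of the 5, 5.86, and differed between the RNAi arrays (11.04 at ZT3, 9.85 at ZT15), where *Dcr-2* was even.

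**Figure D5:**
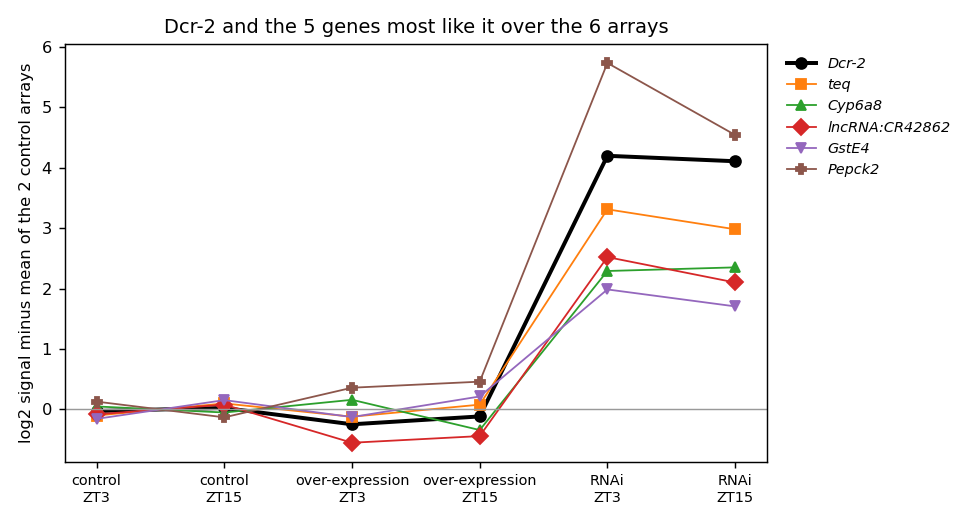
Log2 signal of *Dcr-2* and of the 5 named genes with the highest correlation to it, each minus its own mean on the control arrays (vertical axis), on the 6 arrays (horizontal axis). Bare CG or CR numbers were left out. All lie higher on both RNAi arrays than elsewhere, and *Pepck2* is the gene whose ZT3 and ZT15 arrays differ most there.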

How the data were processed

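The deposited values are signals per probe set, and their range (2.32 to 14.32, near-equal medians) is that of a log2 scale. Per the submitters' processing notes the authors made them with Affymetrix Expression Console, and its version and normalization are not given in the sources used here. Each of the 10956 probe sets reached 4.00 on some array, so the dimmest were probably removed before deposit. Current symbols came from the RefSeq table (Release 6 plus ISO1 MT), matched on gene ID for 9260 of 9286 probe sets with 1 gene, and 63 control probe sets were not tested.

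Differences were fitted with limma 3.58.1 in R 4.3.3 on the other 10893 probe sets: additive terms for genotype and time, all 6 arrays, eBayes with an intensity trend, two-sided, Benjamini-Hochberg over all probe sets, threshold 0.05. No further filter was set, so that all 7 members were tested. Residual degrees of freedom were 2, so the genotype-by-time interaction is part of the error. The number of arrays limits the precision. The procedure was run on simulated arrays with independent noise and no effect of time. These cannot show how it behaves with the genotype-by-time interaction in the error. The brightest probe set stood for a list gene. Members, 4 pathway lists and marker lists were chosen with earlier results of these data known. Named were all members, up to 4 called genes per list and comparison with the largest differences, and the 5 genes most correlated with *Dcr-2*. Symbols that are a bare CG or CR number were left out of the last. Other list and marker genes given with values were chosen after their values were seen. Alternatives were other filters, gene-level units, models, scalings and each array left out. Figures were drawn with matplotlib 3.10.9.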

Additional observations from a re-analysis of the deposited data

Results flagged for a closer look

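The time difference of *armi* ran in opposite directions in the altered groups. Its ZT15 array lay 0.82 below its ZT3 array in the over-expression heads (-0.82) and 0.22 above it in the RNAi heads, with -0.28 in control. With 1 array per group and time this difference between groups was not tested.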

How the results depend on the processing

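No call on a member changed under another filter, unit, model or scaling that tested it. *r2d2* stayed between -0.70 and -0.65 against control on the RNAi arrays in 8 such settings (adjusted p 0.0101 to 0.0355). Centring on 32 ribosomal protein probe sets moved the median of all probe sets by up to 0.13. With probe sets above the 40th percentile only 3 members were tested, and the 1 that passed between RNAi and control heads was *Dcr-2*. It was also the 1 member 2-fold apart at both times. The rise of *Dcr-2* between RNAi and control heads was known beforehand, so its part in these counts, and in those with 1 array left out, is a description. With 1 array left out, members called ran from 0 to 2 in that comparison and from 0 to 1 between over-expression and control heads (*armi*, 0.87). Over all probe sets, 660 were called between over-expression and control heads, 939 between RNAi and control, 2808 between the altered groups and 59 with time. Without the intensity trend the first and last were 422 and 25. Without the other term, 286, 487 and 4 were called for the first, second and last. With only the arrays compared, 1923 were called between RNAi and control and 1294 between the altered groups. With 1 array left out the counts ran from 0 to 1436, 1 to 1900, 776 to 3010 and 0 to 133. The lowest were without a control array, where limma called 0 for over-expression against control (1817 without ZT3 and 1521 without ZT15 at an unadjusted p under 0.05). Such a fit leaves 1 array in a group, whose spread is taken from the others. Time, the label that matches arrays across groups, is a term of the fit, and the counts without it are given above. The genes of the 4 lists named with a call lost it in 22 of 117 such settings and in 53 of 84 fits with 1 array left out, and 0 reversed. Calls over the 62 list genes ran from 0 to 8 for over-expression against control and from 0 to 9 for RNAi against control with 1 array left out, and the latter was 8 with only the arrays compared.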

Other observations

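Among the microRNA effector genes the largest difference from control on the RNAi arrays was that of *DCP2*, the catalytic subunit of messenger RNA decapping. It read 5.99 and 6.17 in control, 5.84 and 6.05 on the over-expression and 5.41 and 4.88 on the RNAi arrays, a difference of -0.93 ± 0.21 that did not pass (limma adjusted p = 0.0579). *Fmr1*, the fragile X protein gene, whose product is found with Argonaute-2, read 8.34 and 8.60 in control, 7.91 and 7.96 on the over-expression and 8.02 and 7.85 on the RNAi arrays. It lay at -0.54 in both altered groups (adjusted p = 0.0637 for RNAi and 0.0751 for over-expression), and both comparisons share the control arrays. Its dimmer probe set differed by 0.12 and -0.08.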
